A study of Homo sapiens with 14 samples.

Results

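The peaks described here lie in the NBPF duplications of band 1q21, a stretch of chromosome 1 from 143900000 to 149700000 (hg19) in which long segments occur in several near-identical copies. A peak belongs to the window if its start falls between these positions. The rule took 869 of the 117699 peaks of all 12 peak lists, and the rest of chromosome 1 holds 17467. The window was selected on measured values, the peak positions and folds of these lists (strong HSF1 sites of heat-treated cells were seen in it), so what the lists show there is given as a description, with no test. At the edges, the last peak before the window starts at 143883051 and the first inside at 143909278, both weak (folds 1.91 and 1.83). The last inside starts at 149696179 and the first after it at 149713009 (folds 1.90 and 1.80).

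The study mapped binding with ChIP-seq, the sequencing of DNA pulled down by an antibody, in K562, an established human erythroleukemia cell line grown at 37 °C. Cells were either freely cycling or arrested in mitosis, and either left non-treated or heated to 42 °C for 30 min. Each of these 4 conditions has 1 library with an HSF1 antibody, 1 with an HSF2 antibody and 1 with non-specific IgG, and each cell state has 1 input library, labelled as heat-treated. Every library came from 10 pooled immunoprecipitations, so there are no replicates, and no difference between conditions can be tested.

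Heat shock factor 1 (HSF1) drives transcription of heat shock genes, gathers into trimers under stress and binds inverted repeats of the bases GAA, called heat shock elements. HSF2 is a related factor that binds the same element and can join HSF1 in mixed trimers. The NBPF genes (neuroblastoma breakpoint family) code for proteins built from many copies of one repeated domain, the Olduvai domain, and spread along 1q21 by duplication in the primate lineage. Short reads from such copies often match several places, so a peak there depends on how the aligner placed them.

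How alike the copies can be is shown by RefSeq promoters of 3 NBPF genes, 300 bases each, from GRCh38.p14. The lists are on hg19, and no hg19 genome or annotation was used here, so no sequence under a peak was read and no peak was placed on a gene. Capitals mark bases that differ from NBPF9 in a pairwise alignment. NBPF9 is at chr1:149103502-149103801 (minus strand), NBPF15 at chr1:144461620-144461919 (minus strand) and NBPF8 at chr1:120414777-120415076 (plus strand), all in GRCh38.p14 and not comparable with the hg19 positions of the peaks.
NBPF9: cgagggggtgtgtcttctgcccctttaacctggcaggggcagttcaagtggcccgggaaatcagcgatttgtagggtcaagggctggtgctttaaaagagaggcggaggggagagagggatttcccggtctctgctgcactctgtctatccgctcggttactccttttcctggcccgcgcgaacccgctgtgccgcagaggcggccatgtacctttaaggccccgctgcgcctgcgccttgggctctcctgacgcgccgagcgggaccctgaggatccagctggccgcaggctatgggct
NBPF15: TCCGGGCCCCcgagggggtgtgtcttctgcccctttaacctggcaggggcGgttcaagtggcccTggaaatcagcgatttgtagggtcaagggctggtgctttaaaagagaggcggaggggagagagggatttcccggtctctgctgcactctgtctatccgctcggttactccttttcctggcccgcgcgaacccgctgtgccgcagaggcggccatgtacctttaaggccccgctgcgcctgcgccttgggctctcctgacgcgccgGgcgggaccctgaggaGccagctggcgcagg
NBPF8: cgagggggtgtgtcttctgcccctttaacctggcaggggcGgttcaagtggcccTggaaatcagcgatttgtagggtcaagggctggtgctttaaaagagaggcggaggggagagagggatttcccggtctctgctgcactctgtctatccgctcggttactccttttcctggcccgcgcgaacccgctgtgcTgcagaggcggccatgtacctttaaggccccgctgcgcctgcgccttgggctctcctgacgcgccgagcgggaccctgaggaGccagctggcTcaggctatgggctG
Aligned over all columns, gaps included, the 3 promoters were 92.3% to 97.7% identical to each other, and 10 of the 14 capitals of NBPF15 stand before the first base of NBPF9. Other pairs among the 12 NBPF genes with a promoter in the table, aligned by the first promoter listed for each gene, ranged from 44.9% to 77.8%. Gaps at the ends count as differences, so promoters with shifted starts score low even where they share sequence. NBPF11 and NBPF12 (76.2%) share a long stretch in this way. The lower values thus do not show that these copies are unalike. A heat shock element of 3 alternating units of GAA and TTC, with any 2 bases (NN) between units, occurred in 0 of the 14 NBPF promoters and in 0.49% of all 35116 promoters of the table. Its forms, starting with GAA or with TTC, are each other's reverse complement, so both strands were covered. The shorter forms of 2 units, GAANNTTC or TTCNNGAA, are each their own reverse complement and are contained in the longer ones, and they occurred in 0 of the 14 and in 13.5% of all.

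Depth, as kept tags (reads left after MACS capped duplicates), lay between 2066373 for mitotic IgG without heat and 28676943 for cycling HSF2 without heat. In 5 lists, all of cycling cells, the alignment file named in the header carries bwa. In the other 7 it does not, namely the 6 mitotic ones and cycling IgG without heat. MACS recorded a redundant rate of 0 in the 5 and of 0.1 to 0.41 in the 7. That cycling IgG list was also called against an input of 36542527 kept tags, the other cycling lists against 34815679. Among HSF lists, cell state and alignment naming cannot be told apart. Intervals below are 95% intervals that cover counting error only, and reads without molecular identifiers are not independent molecules. Positions without a build are on chromosome 1 of hg19.

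In the list of HSF1 with heat in cycling cells, peaks were packed more densely into the window than along the rest of the chromosome, and so were peaks of IgG. Density was taken per Mb of 100 kb bins that hold a peak of any list, which gives 5.6 Mb in the window and 188.4 Mb elsewhere on chromosome 1. HSF1 in heat-treated cycling cells had 116 window peaks, 20.7 per Mb (17.1 to 24.8) against 4.08 per Mb in the rest, a ratio of 5.08 (4.14 to 6.18). HSF2 of the same cells had 68 peaks, 12.1 per Mb against 2.86, a ratio of 4.24 (3.25 to 5.47). IgG of the same cells had 111 peaks, 19.8 per Mb against 2.83, a ratio of 7.01 (5.66 to 8.61), the highest of the 12 lists. High density in the window is thus not limited to the HSF antibodies.

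Non-treated cycling lists were denser in the window too, each with a lower ratio than its heat-treated list. HSF1 had 77 peaks there, with a density ratio of 3.87 (3.01 to 4.90). HSF2 had 10 peaks and a ratio of 3.62 (1.68 to 6.95). IgG had 119 peaks and a ratio of only 1.54 (1.27 to 1.85), in a list of 15758 peaks that carries the other alignment naming.

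The mitotic lists did not share a direction. HSF1 had 64 window peaks without heat and 65 with heat, with ratios of 4.26 (3.23 to 5.53) and 3.90 (2.97 to 5.06). HSF2 had 74 without heat and 30 with heat, with ratios of 0.793 (0.621 to 0.998) and 0.727 (0.489 to 1.04). Mitotic IgG had 11 peaks without heat, a ratio of 1.64 (0.806 to 2.99), and 124 with heat, a ratio of 0.647 (0.538 to 0.773). In all, the window was denser than the rest of the chromosome in 9 of 12 lists, the 6 cycling ones and 3 of the 6 mitotic ones. The interval lay wholly above 1 in 8 lists, without non-treated mitotic IgG, and wholly below 1 in 2. The 3 lists with lower density in the window held 8270, 19866 and 41184 peaks genome-wide.

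**Figure D1:**
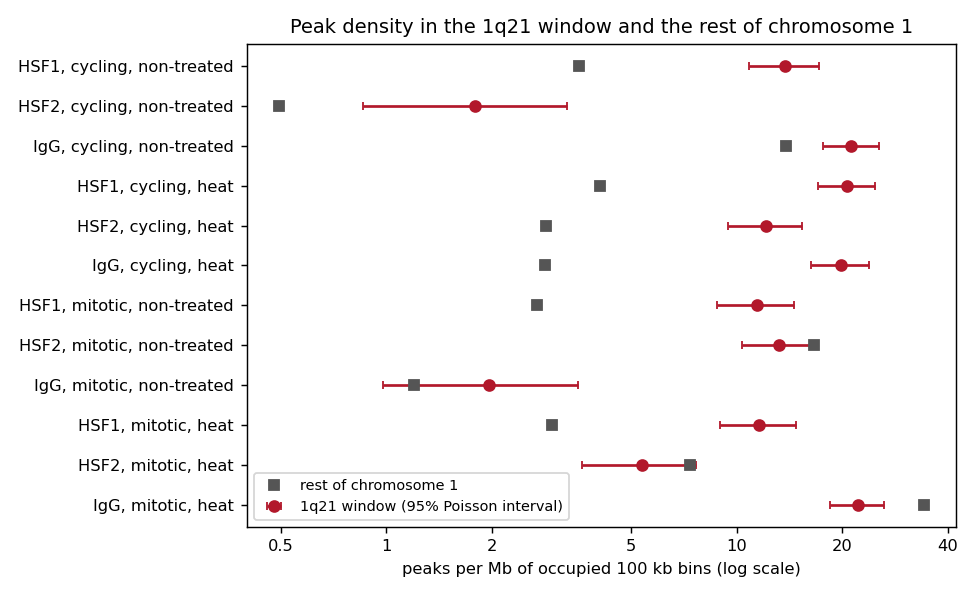
Peaks per Mb (log scale) in each of the 12 lists, for the 1q21 window (circles, with 95% Poisson intervals) and the rest of chromosome 1 (squares). The window lies to the right of the rest in all 6 cycling lists and to the left in both mitotic HSF2 lists and in heat-treated mitotic IgG.

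Chromosome 1 was also cut into tiles of the window's own length, which gave 41 other tiles with a peak. For HSF1 of heat-treated cycling cells the window's 116 peaks stood above every other tile, of which the fullest had 62 and the median 16. For HSF2 of those cells the fullest other tile had 43 peaks, and for IgG 46. The window also ranked the fullest in non-treated cycling HSF1, with 77 against at most 69. It was 2 in rank for heat-treated and 3 for non-treated mitotic HSF1, 3 for non-treated cycling HSF2, and between 6 and 18 in the remaining 5 lists.

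**Figure D2:**
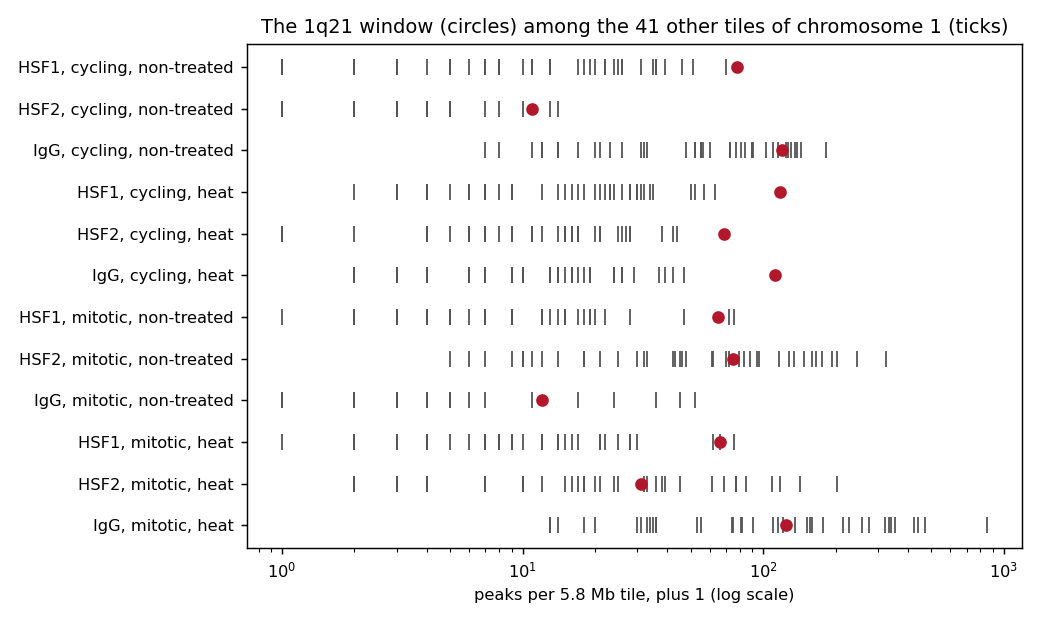
Peaks per 5.8 Mb tile of chromosome 1, plus 1, on a log scale, with 1 line per list. Circles are the 1q21 window and ticks the 41 other tiles. The circle lies to the right of all ticks in heat-treated cycling HSF1, HSF2 and IgG and in non-treated cycling HSF1.

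Heated and non-treated libraries can be set side by side for each antibody, with 1 library each. HSF1 of cycling cells had 1.51 times the window peaks after heat (1.12 to 2.04), where the rest of the chromosome gave 1.15. In mitotic cells the HSF1 ratio was 1.02 (0.708 to 1.46) in the window and 1.11 in the rest. For HSF2 it was 6.80 (3.48 to 14.8) in cycling cells, near the 5.8 of the rest, and 0.405 (0.256 to 0.627) in mitotic cells, near the 0.442 of the rest. For IgG of cycling cells it was 0.933, with an interval that spans 1 (0.714 to 1.22), against 0.205 in the rest. For IgG of mitotic cells it was 11.3 (6.09 to 23.2) against 28.5. HSF2 counts were thus higher with heat in cycling and lower in mitotic cells, inside and outside the window. In both cell states the HSF2 list with fewer peaks was the one with more kept tags. The part of depth was not tested.

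Summed tags gave the same direction for HSF1 with heat, although a few very high peaks elsewhere weigh on the comparison. Tags in peaks were scaled to 1000000 kept tags of the library (CPM). In heat-treated cycling HSF1, window peaks summed to 46.7 CPM per Mb against 10.9 in the rest, a ratio of 4.29 (4.16 to 4.43). Peaks covered 21.08 kb per Mb of the window and 3.60 kb per Mb of the rest. Within peaks, the window held 2.22 CPM per kb against 3.02 in the rest, where the 2 largest peaks alone made up 31.9% of the tags.

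The tag ratio was 3.06 for HSF2 and 3.16 for IgG in heat-treated cycling cells. It was 2.19 for HSF1, 2.89 for HSF2 and 1.45 for IgG in non-treated cycling cells. Mitotic lists ranged from 0.534 (non-treated IgG) to 1.37 (non-treated HSF1).

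Single peaks were larger but not stronger over input. The median window peak of heat-treated cycling HSF1 had 1.61 CPM and a length of 960 bp, against 1.02 and 666.5 bp in the rest. Its median fold, the authors' ratio of ChIP tags to the tags expected from input at the summit, was 2.50 against 2.89. Of the 12 lists, 9 had a higher median of CPM in the window, 9 a longer median peak and 10 a lower median fold. Median fold was higher in the window for heat-treated cycling HSF2 (3.42 against 3.25) and for non-treated mitotic IgG (0.62 against 0.375).

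Relative to IgG of the same cells, the HSF lists did not share one direction by peak count. HSF1 of heat-treated cycling cells had 1.05 peaks per IgG peak in the window (0.799 to 1.37) and 1.44 in the rest of the chromosome (1.29 to 1.61). HSF2 of those cells had 0.613 (0.446 to 0.836) and 1.01 (0.895 to 1.14). The quotient of window over rest was 0.725 (0.547 to 0.962) for HSF1 and 0.606 (0.438 to 0.838) for HSF2, from an approximate log-scale interval. By peak count, the window to rest ratio of IgG was thus above that of either factor.

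By summed CPM the direction was reversed for HSF1 of heat-treated cycling cells, but not for HSF2. The HSF1 to IgG ratio was 1.59 in the window and 1.17 in the rest, and for HSF2 it was 0.815 and 0.842. In the rest, the 2 largest peaks held 31.9% of the HSF1 sum, 38.7% of HSF2 and 43.6% of IgG. In all HSF lists of the other conditions the CPM ratio to IgG was higher in the window. Non-treated mitotic HSF2 was among these (1.66 against 1.09), although it was lower by peak count. In non-treated cycling cells the peak ratio to IgG was higher in the window for HSF1 (0.647 against 0.258) and for HSF2 (0.0840 against 0.0358). Those 2 values compare lists with unlike alignment naming.

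In mitotic cells with heat the ratio was 0.524 in the window and 0.0869 in the rest for HSF1, and 0.242 and 0.215 for HSF2. Without heat it was 5.82 and 2.24 for HSF1, and 6.73 and 13.9 for HSF2, over an IgG list with 11 window peaks. By peak count, the ratio was higher in the window in 5 of the 8 HSF lists. For heat-treated mitotic HSF2, among these 5, the quotient of window over rest was 1.12, and its interval spans 1 (0.751 to 1.68). In the remaining lists of the 5 the interval lay above 1. The ratio was lower in both HSF lists of heat-treated cycling cells, the only pairs in which HSF and IgG lists both carry bwa.

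The lists separated by strength of peak, genome-wide as well as in the window. In heat-treated cycling HSF1, 12 of the 116 window peaks had a fold of at least 10, where 4.42% of that list did genome-wide. In HSF2 of the same cells 3 of 68 did, against 3.62% genome-wide, so this share lies near the background. In the other 10 lists no window peak reached that fold, and few or none did genome-wide, so these counts lie near the background too. Genome-wide, 0.0212% of peaks did so in non-treated cycling HSF1, 0.571% in non-treated cycling HSF2, 0% and 0.12% in mitotic HSF1 without and with heat, and 0.0201% and 0.121% in mitotic HSF2. In IgG the share was 0% in both cycling lists and in non-treated mitotic cells, and 0.017% in heat-treated mitotic cells.

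A fold of at least 5 was found at 25 of the 116 window peaks of heat-treated cycling HSF1, where 19.4% of that list reached it genome-wide, so this share lies near the background. In heat-treated cycling HSF2 it was found at 21 of 68, against 21.07% genome-wide. It was found at 1 of 77 in non-treated cycling HSF1 (0.996% genome-wide) and at 0 of 10 in non-treated cycling HSF2 (17.9%). In IgG it was found at 0 window peaks in cycling cells with heat (0.411%) and without (0.209%), and at 1 of 124 in mitotic cells with heat (1.35%). The other mitotic lists had no such window peak. Their genome-wide shares were 0.0662% and 0.743% for HSF1 without and with heat, 0.272% and 7.41% for HSF2, and 0.0421% for non-treated IgG. The highest IgG fold in the window was 3.43 in heat-treated and 4.43 in non-treated cycling cells.

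The window holds 12 of the 285 genome-wide HSF1 peaks of fold 10 or more (4.21%, 2.42 to 7.21) and 12 of the 35 on chromosome 1 (34.3%, 20.8 to 50.8). That is 2.14 per Mb in the window and 0.122 per Mb in the rest of the chromosome. The 3 HSF2 peaks are 1.92% of 156 (0.656 to 5.50). These counts are what led to the choice of the window.

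**Figure D3:**
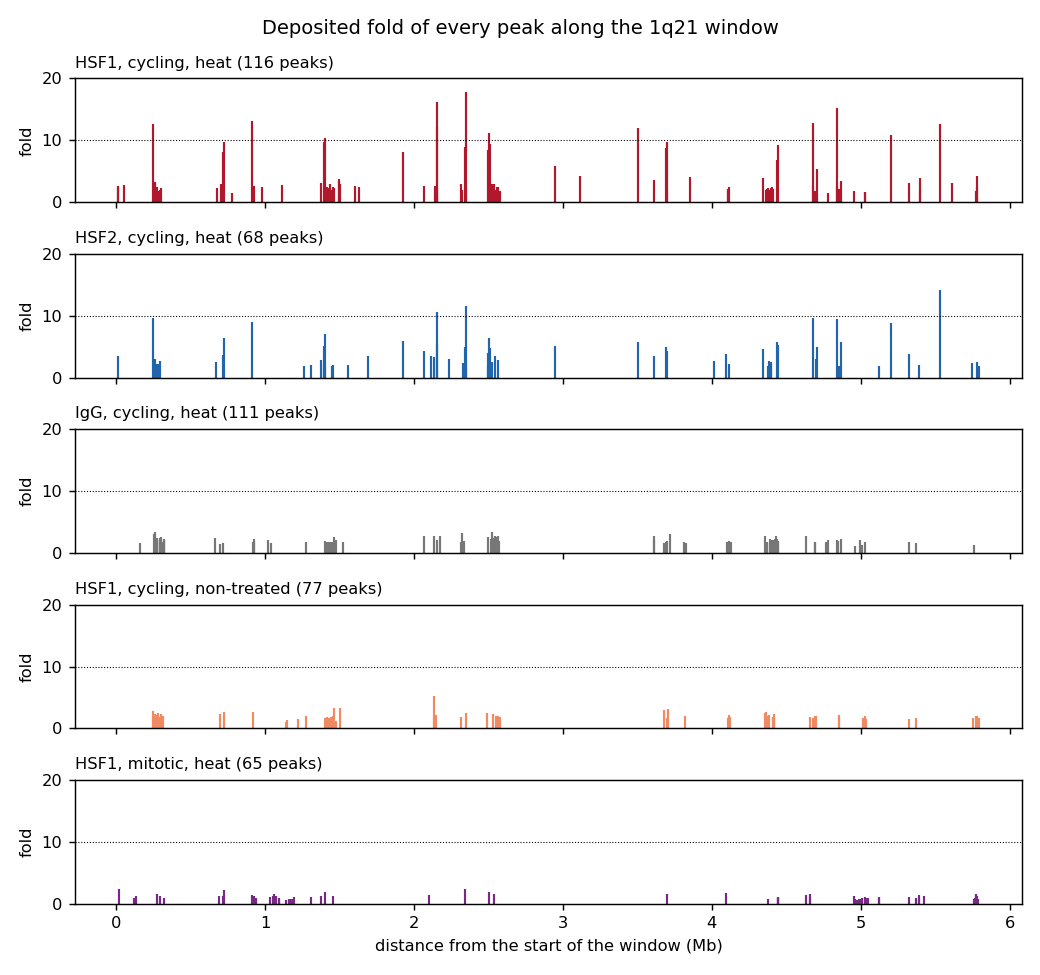
Deposited fold of every peak along the window, in Mb from its start, for 5 lists, with a dotted line at a fold of 10. Tall lines appear in heat-treated cycling HSF1 (up to 17.86) and HSF2 (up to 14.17), while IgG, non-treated HSF1 and heat-treated mitotic HSF1 stay at or below 5.22.

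The 12 HSF1 sites were alike in size, with 52 to 116 tags (median 73.5), 3.11 to 6.93 CPM (median 4.39) and lengths of 842 to 1466 bp. Their folds ran from 10.29 to 17.86 (median 12.62), and their deposited FDR was at most 0.64%. Just inside the minimum stood folds of 10.29 and 10.88, and just outside 9.77, 9.77 and 9.64. The 23 such sites elsewhere on chromosome 1 had a median of 4.18 CPM, a median fold of 11.97 and a highest fold of 26.22.

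The highest fold, 17.86, was at 146250278 to 146251351, with 76 HSF1 tags after heat (4.54 CPM, 3.58 to 5.68). HSF2 had 50 tags there (2.57 CPM, 1.91 to 3.38, fold 11.54), and none of the other 10 lists had a peak. Next came 146056828 to 146057993 (fold 16.18) with 79 HSF1 tags (4.72 CPM, 3.74 to 5.88). HSF2 had 73 tags there (3.75 CPM, 2.94 to 4.71, fold 10.59), again with no peak in another list. At both sites the factors had a peak after heat in cycling cells, and the other 10 lists had none.

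The site at 149430777 to 149431850 (HSF1 fold 12.57, 75 tags, 4.48 CPM, 3.52 to 5.62) was the one with the highest HSF2 fold of the window. HSF2 had 73 tags there (3.75 CPM, 2.94 to 4.71, fold 14.17). No other list held a peak. Likewise, at 148577081 to 148578345 HSF1 had 70 tags (4.18 CPM, fold 12.80) and HSF2 had 67 (3.44 CPM, fold 9.57).

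At 149105553 to 149106394 the HSF1 peak had 52 tags (3.11 CPM, fold 10.88) and the HSF2 peak 40 (2.05 CPM, fold 8.84). At 147400545 to 147401620 they had 56 (3.35 CPM, fold 12) and 30 tags (1.54 CPM, fold 5.71). These are the sites with the fewest HSF1 tags, and at both only the 2 heat-treated cycling HSF lists held a peak.

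In 6 of the 12 sites a further list had a peak. The site at 148739310 to 148740373 (fold 15.26) had 89 HSF1 tags after heat (5.32 CPM, 4.27 to 6.54) and 66 HSF2 tags (3.39 CPM). It was the one site with a non-treated cycling HSF2 peak, of 44 tags (1.53 CPM, 1.11 to 2.06, fold 3.33). The deposited FDR of that HSF2 peak was 22.98%. Non-treated mitotic HSF1 also had a peak there, with 8 tags and a fold of 0.8.

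At 144146388 to 144147536 (fold 12.67) HSF1 had 71 tags after heat (4.24 CPM, 3.31 to 5.35) and HSF2 53 (2.72 CPM). It was the one site met by a non-treated cycling HSF1 peak, of 12 tags (0.831 CPM, 0.429 to 1.45). The summits of these HSF1 peaks lay 617 bp apart, so that the non-treated peak sits on the flank of the heat peak.

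At 146050631 to 146051627 (fold 12.29, 65 tags, 3.88 CPM) HSF2 had 33 tags (1.69 CPM, fold 5.43). Non-treated cycling IgG had 14 tags there, in a peak whose summit lay 615 bp away. No other IgG list had a peak at any of the 12 sites.

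Mitotic HSF1 after heat was found at 3 of the 12, in each with few tags. At 144811420 to 144812262 (fold 13.10) cycling HSF1 had 85 tags (5.08 CPM, 4.06 to 6.28) and mitotic HSF1 9 tags (1.22 CPM, 0.557 to 2.31, fold 1.43). At 145298963 to 145300428 (fold 10.29) the values were 116 tags (6.93 CPM, 5.73 to 8.31) and 11 tags (1.49 CPM, 0.744 to 2.66, fold 1.86). At 146401165 to 146402406 (fold 11.23) they were 72 tags (4.30 CPM, 3.37 to 5.42) and 11 tags (1.49 CPM, fold 1.88). The cycling value is the higher at these 3 sites, which were chosen by their fold in the cycling HSF1 list. Each peak also has its own width, and the mitotic library kept 7385467 tags against 16735990. The fold is as deposited and was not scaled for depth here. A depth-scaled fold multiplies it by kept input tags over kept library tags. In site order, cycling and mitotic values were then 27.3 and 7.42, 21.4 and 9.66, and 23.4 and 9.76.

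**Figure D4:**
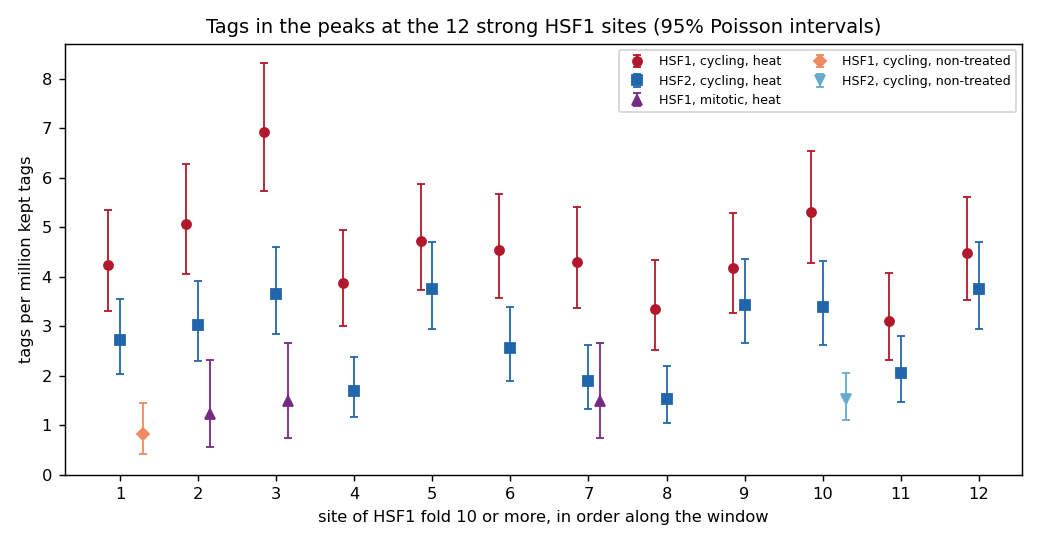
CPM (tags per 1000000 kept tags) in the peaks at the 12 window sites of HSF1 fold 10 or more, in order along the chromosome, with 95% Poisson intervals, for heat-treated cycling HSF1 and HSF2, heat-treated mitotic HSF1 and non-treated cycling HSF1 and HSF2. HSF1 with heat is the highest symbol at each site, and the other 3 lists appear only where they had a peak.

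HSF1 and HSF2 met at all 12 sites, and HSF1 carried more CPM at each. The ratio of HSF1 to HSF2 ran from 1.2 to 2.29 (median 1.62), and summits lay a median of 13.5 bp apart (at most 126). Because the sites were chosen in the HSF1 list, this order favours HSF1. Among sites chosen in the same way, HSF1 was the higher at 21 of 22 shared sites in the rest of chromosome 1 (median ratio 1.4) and at 223 of 246 on all other chromosomes (median ratio 1.48).

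The 12 can be set beside the 273 HSF1 peaks of fold 10 or more outside the window, with wide intervals for so few sites. Heat-treated mitotic HSF1 met 3 of 12 (25%, 8.89 to 53.2) and 154 of 273 (56.4%, 50.5 to 62.2). Heat-treated mitotic HSF2 met 0 of 12 (0 to 24.2) and 100 of 273 (36.6%, 31.1 to 42.5). Heat-treated mitotic IgG met 0 of 12 and 55 of 273 (20.1%, 15.8 to 25.3), so the IgG share differed in the same direction. Without heat, mitotic HSF1 met 1 of 12 (8.33%) and 13 of 273 (4.76%). Differences between these shares were not tested.

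Over all 116 HSF1 heat peaks of the window, most were weak and many were shared with IgG. Heat-treated IgG of cycling cells met 28 (24.1%), against 8.98% in the rest of the chromosome and 11.7% of the list genome-wide. Non-treated cycling HSF1 met 21 (18.1%), against 8.59% and again 11.7%. Non-treated cycling IgG met 21 as well (18.1%), against 9.64% in the rest and 11.7% genome-wide.

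Heat-treated HSF2 met 40 (34.5%), against 28.9% in the rest and 32.6% genome-wide, so this share lies near the background. Heat-treated mitotic HSF1 met 14 (12.1%), against 13.5% and 16.3%. Heat-treated mitotic IgG met 10 (8.62%), against 20.3% and 21%.

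Split by fold, the overlap with heat-treated cycling IgG sat mostly among the weak peaks. Of the 91 window peaks with a fold below 5, 27 met heat-treated IgG (29.7%, 21.3 to 39.7) and 15 met HSF2 (16.5%, 10.3 to 25.4). Of the 13 with a fold of 5 to 10, 1 met IgG and 13 met HSF2. Of the 12 above, 0 met IgG and 12 met HSF2. In the rest of chromosome 1 this IgG list met 64 of 660 weak peaks (9.70%, 7.67 to 12.2), 5 of 85 of fold 5 to 10 and 0 of 23 above. HSF2 met 72 of 85 peaks of fold 5 to 10 there and 22 of 23 of fold 10 or more. Non-treated cycling IgG was not confined to weak peaks in the window. From the lowest to the highest fold class it met 17 of 91, 3 of 13 and 1 of 12. In the rest it met 71 of 660, 3 of 85 and 0 of 23.

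The stronger HSF1 sites repeated a fixed distance, a pattern found after the values were seen. Among the 25 window peaks of HSF1 with heat and a fold of at least 5, 10 pairs had summits within 30 kb of each other, and 8 of these distances lay between 6280 and 6373 bp (mean 6322 bp ± 31.2, SD of the 8 distances). The other distances were 12661 bp, which spans a run of 3 sites, and 26888 bp. In the rest of chromosome 1, 108 such peaks gave 10 pairs within 30 kb, of which 1 lay in the range of 6.0 to 6.6 kb. This range was picked with the window's distances in view, and another pair of the rest lay just outside it, at 6665 bp. On all other chromosomes 1116 peaks gave 111 pairs, of which 2 lay in that range.

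The 8 distances joined 15 sites in 7 groups. One group joined 146050631 to 146051627 and 146056828 to 146057993 (folds 12.29 and 16.18, 6280 bp). Another joined 146244229 to 146245183 and 146250278 to 146251351 (8.96 and 17.86, 6284 bp). The run of 3 began at 146394830 and went on at 146401165 and 146407360, with folds of 8.50, 11.23 and 9.34 and steps of 6348 and 6313 bp.

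Further groups lay at 144614513 and 144620813 (folds 8.04 and 9.64, 6318 bp), at 145292392 and 145298963 (9.77 and 10.29, 6373 bp), at 147592372 and 147598669 (8.68 and 9.77, 6336 bp) and at 148339885 and 148346333 (6.86 and 9.20, 6326 bp). The peak at 145292392 to 145294062 had the most HSF1 tags of the window, 124 (7.41 CPM). The site at the higher position had the higher fold in 7 of the 8 steps and more tags in 5. In the HSF2 list, which shares its input with the HSF1 list, there were 4 such distances among 21 peaks of fold 5 or more, from 6252 to 6427 bp.

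The one distance of this kind elsewhere on chromosome 1 was 6305 bp, between HSF1 peaks at 16904805 to 16906449 and 16911539 to 16912628 (folds 5.67 and 6.93). NBPF1, another gene of the family, is annotated on the short arm of chromosome 1 in RefSeq. Whether the peaks lie in it was not analysed here, for want of an hg19 annotation.

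**Figure D5:**
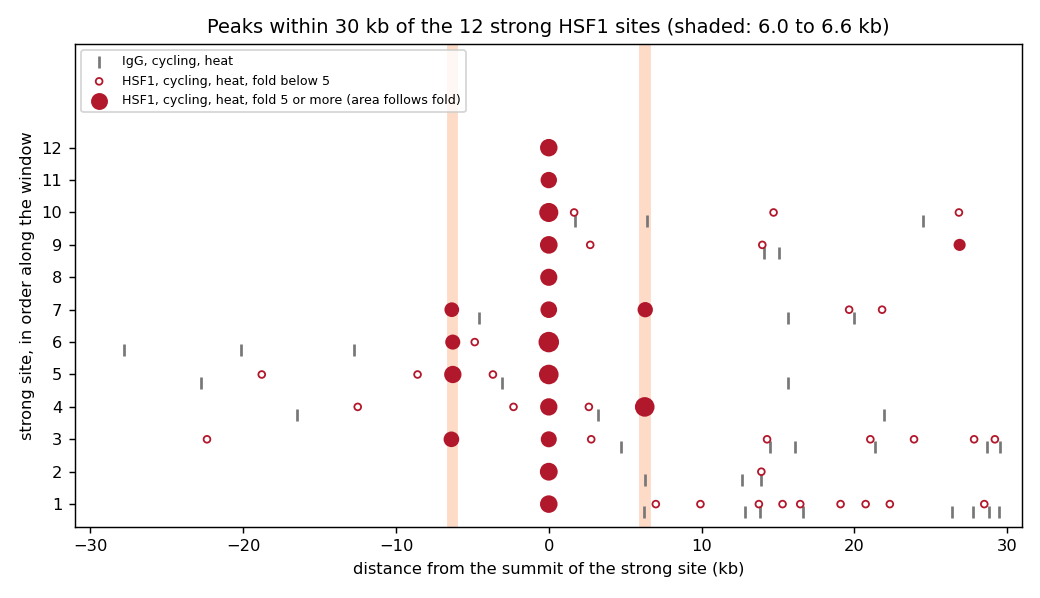
Peaks within 30 kb of the 12 window sites of HSF1 fold 10 or more, by distance between summits in kb, with 1 row per site. Filled circles are HSF1 peaks with heat and fold 5 or more (area follows fold), open circles weaker HSF1 peaks, and grey ticks heat-treated cycling IgG peaks. In 5 rows a filled circle stands in the shaded range of 6.0 to 6.6 kb, to the left, the right or on both sides.

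The remaining lists had peaks of low deposited fold in the window, a value not scaled for depth here. The highest fold was 5.22 in non-treated cycling HSF1, at 146034104 to 146035161 (29 tags, 2.01 CPM), and 4.62 in non-treated cycling HSF2, at 147544011 to 147544638 (19 tags). In mitotic HSF2 it was 4.23 without heat, at 149137363 to 149137901 (15 tags), and 4.93 with heat, at 146379426 to 146379996 (17 tags). In mitotic HSF1 it was 2.00 without heat, at 148741491 to 148742250 (11 tags), and 2.39 with heat, at 146244313 to 146244933 (13 tags).

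That last peak overlaps a cycling HSF1 site of fold 8.96, one of the 25 described above, of which 8 had a mitotic HSF1 peak after heat. Without heat, 73.4% of the mitotic HSF1 window peaks had a fold below 1, and 34.2% of those in the rest. With heat the shares were 41.5% and 21.6%. These libraries kept only 6164898 tags without heat and 7385467 with heat, and the folds were not scaled for depth. In IgG the highest folds were 4.43 at 147486401 to 147487148 (non-treated cycling, 17 tags), 3.43 at 146421257 to 146422124 (heat-treated cycling, 19 tags), 1.36 at 148314704 to 148315182 (non-treated mitotic, 7 tags) and 5.33 at 147620166 to 147621011 (heat-treated mitotic, 24 tags).

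Overlapping peaks of all lists were joined, which gave 491 regions in the window, of which 308 (62.7%, 58.4 to 66.9) came from 1 list, against 83.7% of 13613 in the rest of the chromosome. A share of 24.4% (20.8 to 28.4) held peaks of HSF and IgG lists together, against 12.1% in the rest. Regions in 5 or more lists made up 3.26% (2.02 to 5.23), against 0.830% in the rest. Of these 16 window regions, 1 held an HSF1 heat peak of fold 5 or more, at 144620813 to 144622347 (5 lists, fold 9.64). Regions in 9 or more lists were 0.204% of the window's and 0.242% of those in the rest, so this share lies near the background. The 1 such region of the window, with peaks in 9 lists, was 148927351 to 148933846. Its CPM were 15.5 in heat-treated mitotic IgG, 11.2 and 9.54 in mitotic HSF2 with and without heat, and 4.2 and 1.46 in mitotic HSF1 with and without heat. In cycling cells they were 2.57 in heat-treated HSF1, 4.22 in non-treated HSF1 and 1.49 in non-treated IgG, and non-treated mitotic IgG had 2.90. No fold there exceeded 4.65, and the 3 highest levels came from mitotic IgG and HSF2.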

How the data were processed

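The labels give 14 samples in 14 groups: 12 antibody libraries, each with a peak list, and 2 inputs that serve as control. Bowtie, MACS 1.4 and hg19 are named per the submitters' processing notes. Per the file headers, MACS 1.4.1 ran with a p cutoff of 1e-05, a fragment size of 200 bp and at most 2 (or 1) duplicate tags per position. How reads that match several copies were treated is not given in the sources used here, and it bears on every value in the window. The lists give counts of tags in each peak, as deposited. Each peak's deposited score is -10*log10 of its p-value. The fold, deposited by the authors, is a ratio to the tags that input predicts. It was used without scaling for depth, except where a depth-scaled fold is named. FDR values come as a percent, per the file headers. Accession names for chromosomes in 1 list were changed to numbers.

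Shares have Wilson intervals, counts and tags exact Poisson intervals, and density ratios exact conditional intervals. Overlap means 1 bp or more. Kept tags set the precision and ranged from 2066373 to 28676943. With 1 library per group no test was run. The members, lists, thresholds and comparisons were chosen with earlier results of these data known. Named are the window peaks of fold 10 or more in HSF lists, the highest fold of each list and regions in at least 9 lists. The 6.3 kb spacing, and other sites, were picked with their values in view. Alternatives covered length, reference part, minimum strength, membership and overlap. The steps were tested on simulated data. Software was scipy 1.17.1, Biopython 1.88, pandas 2.3.3, matplotlib 3.10.9 and numpy 2.4.6, under Python 3.11.15.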

Additional observations from a re-analysis of the deposited data

Results flagged for a closer look

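Heat-treated lists had more window peaks than non-treated ones in one cell state and fewer in the other, for HSF2 and, by count alone, for IgG. Each group has 1 library, and the difference was not tested. For HSF2 the heat-treated list had 6.80 times the window peaks of the non-treated list in cycling cells (68 against 10) and 0.405 times in mitotic cells (30 against 74). The rest of chromosome 1 moved alike, with ratios of 5.8 and 0.442. For IgG the ratio was 0.933 in cycling cells (111 against 119), where the interval of 0.714 to 1.22 spans 1 and shows no direction, and 11.3 in mitotic cells (124 against 11). In the rest of chromosome 1 the IgG ratios were 0.205 and 28.5. The heat-treated cycling IgG list thus held far fewer peaks than the non-treated one outside the window and nearly as many inside it. These are totals of separately called lists, and which peaks the IgG lists share was not analysed. Kept tags of IgG were 14761560 without and 14567365 with heat in cycling cells, under unlike alignment naming, and 2066373 and 17981369 in mitotic cells. For HSF2, kept tags were 28676943 without and 19476014 with heat in cycling cells, and 14782391 and 28299989 in mitotic cells. The part of depth and naming in these ratios was not tested.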

How the results depend on the processing

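No paired analysis was possible because each group holds 1 library, and for the same reason no replicate could be left out. The window was denser than the rest in 9 of 12 lists, a count that stayed between 8 and 11 over 8 alternatives. With a fold of at least 5 it was 3, since most lists then have few or no window peaks. Among the 5 lists with bwa in the alignment name, a choice made after seeing the data, it was 5 of 5, and without non-treated mitotic IgG, chosen likewise, 8 of 11. The HSF1 heat density ratio of 5.08 was 6.34 with nominal lengths, 6.54 against the long arm after the window, 7.79 with a fold of at least 5 and 6.37 with a score of at least 100. The tag ratio of 4.29 was 5.36, 7.88, 10.8 and 3.79 under the same 4, and 6.27 against all autosomes. By peak count, the 5 of 8 HSF lists with a higher ratio to IgG in the window became 0 of 2 for pairs with bwa in both names. Without the non-treated mitotic pairs the count was 4 of 6. With a fold of at least 5 only the 2 heat-treated mitotic pairs could be counted, since IgG of the other pairs had no such window peak. Those 2 HSF lists had no such window peak either, so their count of 0 was fixed in advance. Among the pairs left out, heat-treated cycling HSF1 and HSF2 had 25 and 21 such window peaks, against 0 in IgG. The 15 HSF window peaks of fold 10 or more were 47 at a fold of 5, 3 at 15, 0 at 20 and 203 by a score of at least 100, where IgG lists had 87. A depth-scaled fold of at least 20 gave 17, where IgG lists had 1. The shares of HSF1 heat peaks met by another list fell under 50% reciprocal overlap, to 15.5% for IgG, 11.2% for non-treated HSF1 and 6.03% for mitotic HSF1. With summits within 250 bp they were 12.9% for IgG and 8.62% for non-treated HSF1. For HSF1 peaks of fold 5 or more they were 4% for IgG, 4% for non-treated HSF1, 100% for HSF2 and 32% for mitotic HSF1, and with that fold in both lists 0%, 0%, 80% and 0%. The cause of these moves was not tested beyond the fewer peaks that each minimum leaves. Depth limits the shallow mitotic HSF1 lists and the non-treated mitotic IgG list most, and a missing peak there does not show a missing factor.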

Other observations

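Window peaks were unevenly spread. Of the 58 bins of 100 kb in the window, the 10 fullest held 444 of the 869 peaks (51.1%), the median bin held 9, and 2 held none. The fullest bin, 145300000 to 145399999, had 74 peaks from 11 of the 12 lists, among them 16 of heat-treated cycling HSF1 and 14 of heat-treated cycling IgG. Another, 144100000 to 144199999, had 53 peaks, 14 and 12 of them from these lists. The bin from 148900000 to 148999999 had 45 peaks from 11 lists, with 2 from each of the same pair of lists.

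The most CPM of any window peak came from non-treated mitotic IgG, at 149033984 to 149036253, with 33.4 CPM from 69 tags and a fold of 0.26. A peak of heat-treated mitotic IgG at 145276626 to 145277967 had 188 tags (10.5 CPM, fold 4.31). At that place non-treated mitotic HSF2 had 125 tags (8.46 CPM, fold 2.87) and non-treated mitotic HSF1 47 (7.62 CPM, fold 1.10). Non-treated mitotic IgG had 19 tags there (9.19 CPM, fold 0.47).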
